A study of Mus musculus with 18 samples.

Results

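The Cyp2c cytochrome cluster was examined through 10 of its genes in mouse liver: Cyp2c29, Cyp2c37, Cyp2c38, Cyp2c39, Cyp2c40, Cyp2c50, Cyp2c54, Cyp2c67, Cyp2c69 and Cyp2c70. They were chosen by gene symbol, and they are 10 of 21 gene records named Cyp2c and of 52230 genes counted. All 10 passed the filter on low counts and were among the 10938 genes tested. Liver RNA was sequenced from 18 mice, 1 library per mouse, to ask how a form of glucokinase regulatory protein (GKRP, the product of Gckr) changes the liver transcriptome in each sex. All mice came from 1 knock-in strain, GCKR-P446L-EMI-B6N, and were fed standard chow. The PP mice carried the 446P form, with proline at residue 446, and the LL mice the 446L form, with leucine there. The groups were male PP (n = 4, aged 9, 12, 14 and 14 weeks), male LL (n = 4, aged 13, 13, 13 and 14 weeks), female PP (n = 5, aged 9, 9, 11, 12 and 14 weeks) and female LL (n = 5, aged 11, 11, 13, 13 and 14 weeks). These ages are from the labels of the single mice, whereas the series description gives 14 weeks for all.

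Cytochromes P450 of the 2C subfamily are membrane enzymes of the endoplasmic reticulum of hepatocytes. They take electrons from NADPH through cytochrome P450 reductase and use them to oxidise drugs, steroids and fatty acids, including the epoxidation of arachidonic acid. Several rodent members are known to be expressed mainly in 1 sex under the control of the growth hormone secretion pattern. Cyp2c70 differs from the others in its best-known role, the hydroxylation of bile acids that forms mouse muricholic acids.

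The 10 genes lay on chromosome 19 between 39257849 and 40175777 of the GRCm39 build. In ascending position their order was Cyp2c29, Cyp2c38, Cyp2c39, Cyp2c67, Cyp2c40, Cyp2c69, Cyp2c37, Cyp2c54, Cyp2c50 and Cyp2c70. Cyp2c68, a near copy that is no member, lay between Cyp2c67 and Cyp2c40. The genes form sets of near copies, which matters here because short reads from identical stretches have to be divided between them. The coding sequences of Cyp2c40, Cyp2c67 and Cyp2c69 were 97.7% to 97.9% identical to each other, and those of Cyp2c37, Cyp2c50 and Cyp2c54 were 95.1% to 96.1% identical. Of the 31-base words in the coding sequence of Cyp2c40, 89.3% also occurred in another gene. That share was 70.3% for Cyp2c69, 69.6% for Cyp2c67, 51.7% for Cyp2c50, 50.9% for Cyp2c37, 43.9% for Cyp2c54, 30.9% for Cyp2c39, 29.8% for Cyp2c38 and 12.1% for Cyp2c29. It was 0% for Cyp2c70, which was at most 69.7% identical to any other member.

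The stretches below are the 60 coding bases, within 1 exon, in which the near copies differ most, and they show how little sequence separates genes whose counts differed so widely. Capitals mark positions at which the genes of a set differ. The first set is coding bases 1037 to 1096 in exon 7, at chr19:39766411-39766470 for Cyp2c40, chr19:39605799-39605858 for Cyp2c67 and chr19:39839526-39839585 for Cyp2c69 (GRCm39, minus strand), with 7 differing positions.
Cyp2c40: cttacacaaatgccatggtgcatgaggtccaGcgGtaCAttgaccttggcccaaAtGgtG
Cyp2c67: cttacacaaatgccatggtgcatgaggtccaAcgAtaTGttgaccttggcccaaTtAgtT
Cyp2c69: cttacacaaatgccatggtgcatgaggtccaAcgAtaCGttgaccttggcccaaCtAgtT
Over the whole coding sequence these 3 genes differed at 49 of 1476 positions. The second set is coding bases 820 to 879 in exon 6, at chr19:39988862-39988921 for Cyp2c37 (plus strand), chr19:40085161-40085220 for Cyp2c50 (plus strand) and chr19:40036030-40036089 for Cyp2c54 (minus strand), with 11 differing positions.
Cyp2c37: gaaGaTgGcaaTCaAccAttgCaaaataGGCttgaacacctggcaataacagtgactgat
Cyp2c50: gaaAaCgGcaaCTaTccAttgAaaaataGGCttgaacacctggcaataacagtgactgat
Cyp2c54: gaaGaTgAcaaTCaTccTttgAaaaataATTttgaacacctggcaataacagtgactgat
These 3 genes differed at 98 of 1473 coding positions.

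The RefSeq windows of 250 bases before the gene start (build GRCm38.p6) are shown for 3 near copies. Their sex differences on normalized counts pointed in different directions. Capitals mark CAAAGTCCA, letters typical of a binding site of the hepatocyte factor HNF4, searched on both strands.
Cyp2c40: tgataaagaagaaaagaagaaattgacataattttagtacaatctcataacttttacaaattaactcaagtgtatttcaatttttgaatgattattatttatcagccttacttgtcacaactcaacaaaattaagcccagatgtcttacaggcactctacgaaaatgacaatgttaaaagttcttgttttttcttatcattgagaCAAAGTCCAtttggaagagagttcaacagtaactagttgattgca
Cyp2c67: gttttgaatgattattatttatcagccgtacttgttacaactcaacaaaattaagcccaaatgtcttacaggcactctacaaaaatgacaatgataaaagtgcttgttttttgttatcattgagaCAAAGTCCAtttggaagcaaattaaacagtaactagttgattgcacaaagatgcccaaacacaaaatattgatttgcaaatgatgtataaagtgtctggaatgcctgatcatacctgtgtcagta
Cyp2c69: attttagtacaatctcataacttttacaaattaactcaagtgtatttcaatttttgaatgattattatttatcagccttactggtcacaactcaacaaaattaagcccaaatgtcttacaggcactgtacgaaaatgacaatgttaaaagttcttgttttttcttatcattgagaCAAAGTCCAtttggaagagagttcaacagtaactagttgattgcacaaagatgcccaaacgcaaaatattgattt
They lie on the minus strand at chr19:39812815-39813064, chr19:39649043-39649292 and chr19:39886770-39887019. Because the annotated starts of the copies are at different places in otherwise alike sequence, the same letters begin 45 bases before the start of Cyp2c40, 125 before that of Cyp2c67 and 75 before that of Cyp2c69. Aligned columns of the Cyp2c40 window were 98.6% identical to Cyp2c69 and 92.9% to Cyp2c67. Windows of 9 members were used, all but that of Cyp2c54. The letters CAAAGTCCA were in those of Cyp2c40, Cyp2c67, Cyp2c69 and Cyp2c70, and in 0.384% of 32851 windows of all genes. A second set of letters, ATCAAT, typical of Onecut factors, was in the windows of Cyp2c67, Cyp2c69, Cyp2c37 and Cyp2c50 on either strand, and in 6.724% of all windows. The letters TTCNNNGAA, typical of STAT5, were in none of the 9 and in 7.02% of all windows.

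Levels of the genes within a mouse were compared as TPM, an abundance scaled by transcript length. In male PP mice Cyp2c50 was first with 231 ± 26.5 TPM (SD, n = 4), followed by Cyp2c70 with 196 ± 46.5, Cyp2c29 with 160 ± 52.6 and Cyp2c67 with 134 ± 44.3. Each of these overlapped its neighbour in that order. Below them came Cyp2c54 and Cyp2c37, and then, with a gap that no mouse bridged, Cyp2c40 with 10.5 ± 10.9, Cyp2c69 with 2.10 ± 1.76, Cyp2c38 with 1.89 ± 0.288 and Cyp2c39 with 0.307 ± 0.112 TPM. In female PP mice Cyp2c40 was first with 755 ± 276 TPM (SD, n = 5), above every value of the next gene, Cyp2c50, with 464 ± 39.1. Cyp2c69 had 464 ± 186 TPM and could not be separated from Cyp2c50, which it exceeded in 3 of 5 mice. Cyp2c40 therefore made up 24.7% of the summed TPM of the 10 genes for female PP mice and 1.23% for male PP mice, and Cyp2c69 15.1% and 0.245%. Other members had smaller shares among female PP than male PP mice. Cyp2c70 went from 23.1% among male PP to 10.8% among female PP mice, and Cyp2c67 from 15.6% to 5.05%. Cyp2c50 went from 26.9% to 15.7%, Cyp2c29 from 18.5% to 11.5% and Cyp2c54 from 7.68% to 5.90%. These are parts of a larger sum in females and no falls in level. Mean TPM was 196 in male PP and 324 in female PP mice for Cyp2c70, and 134 and 153 for Cyp2c67.

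**Figure D1:**
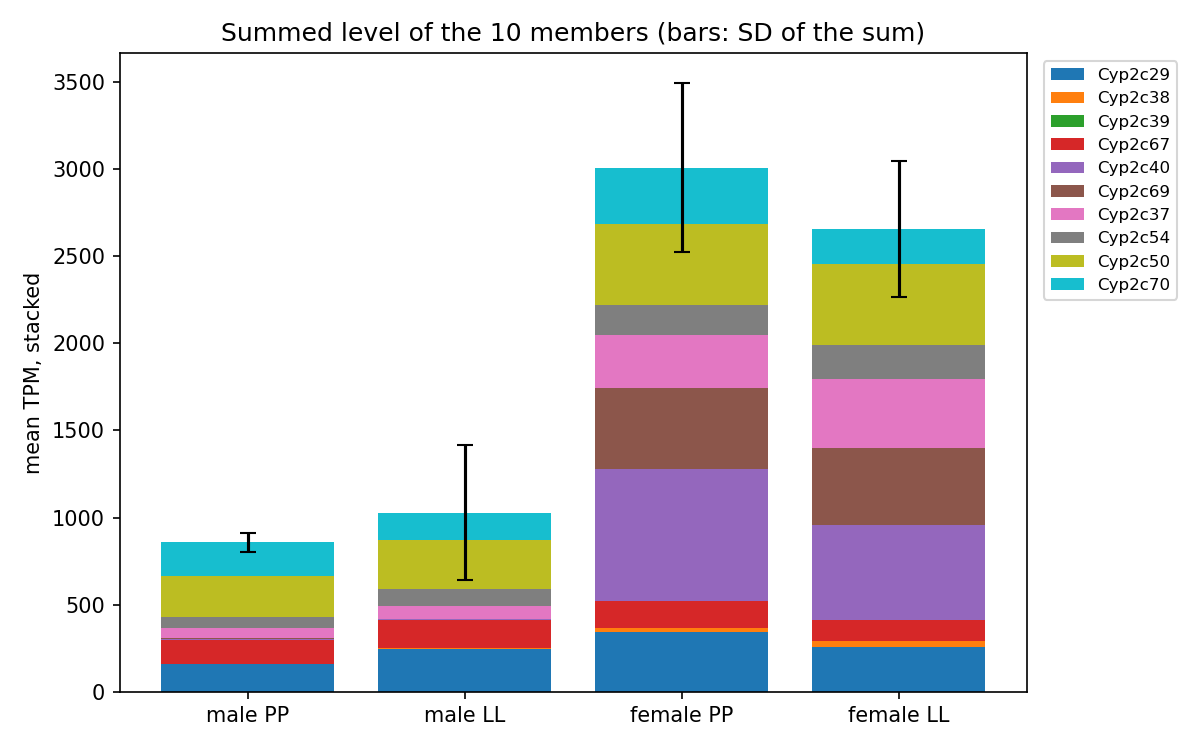
Mean TPM of each member, stacked from 0, in the 4 groups; the error bars are the SD of the sum of the 10 genes over the 4 or 5 mice of a group. The female stacks are taller, at 3008 and 2655 TPM, than the male stacks, at 859 and 1029 TPM, and contain broad bands of Cyp2c40 and Cyp2c69 that are barely visible in males.

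The genotype comparison asked whether the 446L form went with a change in these genes. By DESeq2, 0 of 10 members were called in males, against 0.283% of all genes, and 0 of 10 in females, against 0.658% of all genes. Calls required an adjusted P (Benjamini-Hochberg) under 0.05 together with a ratio of 1.3 or more, or of 0.7 or less. By unadjusted P under 0.05 there were 3 of 10 members in males, against 7.81% of all genes, and 0 of 10 in females, against 13.0%. The median log2 fold change of the members by LL genotype was -0.19 in males and 0.096 in females, and that of all genes was 0.000075 and 0.010. Groups overlapped for all 10 genes in both sexes, whereas ranges were apart for 4.07% of all genes in males and 2.66% in females. The genotype by sex interaction, which asks whether the genotype difference itself differed between the sexes, called 0 of 10 members, against 0.119% of all genes. At an unadjusted P under 0.05 there were 0 members, against 5.67% of all genes. DESeq2's filter on mean counts left 3301 genes with an adjusted P in males, 8598 in females and 1606 for the interaction, among them 9 of the 10 members each time, all but Cyp2c39.

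The members with an unadjusted P under 0.05 in males were Cyp2c40, Cyp2c69 and Cyp2c38. Cyp2c40, a fatty acid hydroxylase, had 499, 135, 41.4 and 30.6 normalized counts in the male PP mice and 37.6, 69.5, 57.1 and 25.9 in the male LL mice. The mean of the male PP mice was set mainly by the mouse with 499, which was the only 9-week-old male. Its log2 fold change by LL was -1.89 ± 0.71 (SE, adjusted P = 0.212 by DESeq2), and without that mouse -0.53. For Cyp2c69 the values were 64.0, 42.0, 2.82 and 12.6 in male PP and 6.48, 15.6, 8.92 and 1.08 in male LL mice, again with the 9-week-old male highest, and the log2 fold change was -1.91 ± 0.87 (adjusted P = 0.349 by DESeq2), or -1.25 without that male. Cyp2c38 was close together in male PP mice, at 54.4, 59.8, 63.0 and 48.6, and scattered in male LL mice, at 206, 116, 63.4 and 23.8, with a log2 fold change of 0.85 ± 0.37 (adjusted P = 0.326 by DESeq2). Without male LL mouse 4, the mouse with 23.8, Cyp2c38 was called higher in male LL mice, at 1.17 (adjusted P = 0.0153 by DESeq2), and without male LL mouse 1, the mouse with 206, the log2 fold change was 0.26.

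Male LL mouse 4 stood low in several further genes. Cyp2c50 had 1118 normalized counts there and 4777, 3647 and 3194.5 in the other male LL mice. Cyp2c37 had 224 there and 816 to 1185 in the others, and Cyp2c54 had 272 against 1025 to 1704. Not all members were low in it: Cyp2c70 had 2113 against 1128 to 1403, and Cyp2c67 had 2020.2 against 1504 to 2243. The same mouse had the lowest mean of 16 pericentral hepatocyte genes of the 18 mice, at -0.51 on a centred log2 scale, and a mean of 16 periportal genes of 0.49, against -0.31 to -0.18 in the other male LL mice. Female PP mouse 2 had similar means, at -0.49 and 0.53. It had 3682 normalized counts of Cyp2c50, 3223 of Cyp2c37 and 1129 of Cyp2c54, and only the last was the lowest of its group. Whether the pericentral and periportal levels had a part in the low values of male LL mouse 4 was not tested.

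In females the genotype values were closer. The largest difference was that of Cyp2c70, at 2225 ± 719 normalized counts (SD, n = 5) in the female PP group against 1594 ± 531 (SD, n = 5) in the female LL group, a log2 fold change of -0.48 ± 0.27 (SE, adjusted P = 0.403 by DESeq2). In males it was -0.51 ± 0.31 (adjusted P = 0.549 by DESeq2). The 95% intervals ran from -1.02 to 0.057 in females and from -1.11 to 0.094 in males, so that neither excludes a fall by more than 1 on the log2 scale.

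**Figure D2:**
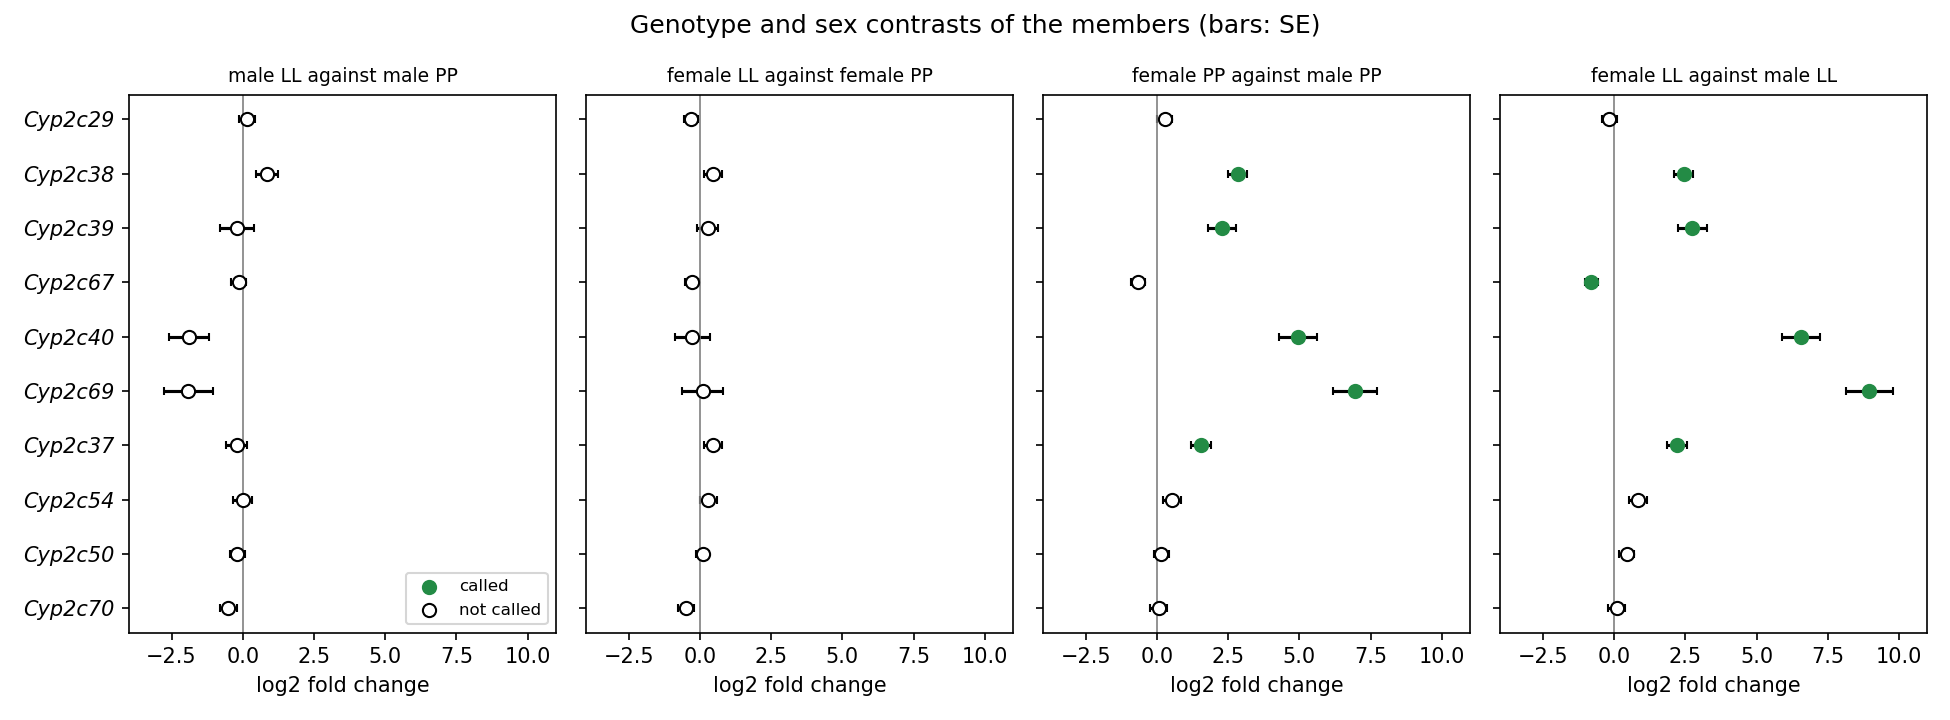
Log2 fold changes of the 10 members in the genotype contrasts (left pair) and the sex contrasts (right pair), with SE bars, in order along the chromosome; filled points were called. No point is filled for genotype, while 5 are filled in PP and 6 in LL mice for sex, all to the right of 0 except Cyp2c67 in LL mice.

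Sex separated 5 or 6 of the members, depending on the genotype. By DESeq2, 5 of 10 members were higher in female PP than male PP mice and 0 lower, against 3.68% of all genes called higher, 2.77% called lower and 6.45% called either way. The 5 were Cyp2c40, Cyp2c69, Cyp2c38, Cyp2c39 and Cyp2c37, and for each of them no female PP value lay inside the male PP range. Cyp2c39 is no independent support for this count, since it had 1 to 8 counts in males and 16 to 55 in females and so passed the filter of 10 counts through the females alone. The other 4 reached 10 counts in 5 or more of the 8 males. Over all genes the ranges were apart for 9.74%. In LL mice the same 5 were higher and Cyp2c67 was lower, 6 of 10, against 3.33% of all genes called higher, 2.79% lower and 6.12% either way. Ranges were apart for these 6, and for 8.16% of all genes.

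Cyp2c69 differed most. Its normalized counts were 6286, 3489, 3517, 3033 and 2218 in female PP and 6003, 5472, 4120.1, 311 and 3940.4 in female LL mice. Even the lowest of these, 311 in female LL mouse 4, was above the highest male value of 64.0. The log2 fold change, female over male, was 6.95 ± 0.79 (SE, adjusted P = 3.3e-16 by DESeq2) in PP and 8.95 ± 0.82 (adjusted P = 9.9e-25 by DESeq2) in LL mice. With male LL values of 1 to 16 counts, the fold in LL mice rests on very few reads in males. Without male PP mouse 1 the log2 fold change in PP mice was 7.60.

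Cyp2c40 followed with 8459, 4940.3, 6209, 4453 and 3143 normalized counts in female PP mice. In female LL mice it had 6866, 5886, 5120.2, 1452 and 3284. All female values were above the highest male value of 499, and female LL mouse 4 was again the lowest. The log2 fold change was 4.95 ± 0.66 (adjusted P = 1.3e-11 by DESeq2) in PP and 6.57 ± 0.67 (adjusted P = 8.2e-20 by DESeq2) in LL mice. Without male PP mouse 1, the mouse with 499, it was 6.30 in PP mice.

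The remaining female-higher genes belong to other sets of near copies. Cyp2c38 had 394, 470.03, 356, 437 and 350.5 normalized counts in female PP and 402, 542, 530.2, 765 and 523 in female LL mice, where the highest male value was 206. Its log2 fold change was 2.83 ± 0.35 (adjusted P = 8.4e-14 by DESeq2) in PP and 2.44 ± 0.34 (adjusted P = 1.7e-10 by DESeq2) in LL mice. Cyp2c39, a retinoic acid hydroxylase and the least abundant member, had 12.8, 40.002, 15.1, 32.6 and 23.6 in female PP mice and 20.03, 33.6, 44.7, 23.4 and 26.3 in female LL mice. Males had 1.08 to 10.4 counts of it, just under the lowest female value. The log2 fold change was 2.27 ± 0.49 (adjusted P = 1.8e-04 by DESeq2) in PP and 2.74 ± 0.51 (adjusted P = 8.7e-06 by DESeq2) in LL mice. Without male LL mouse 1, the highest male for both genes, the values in LL mice were 3.03 for Cyp2c38 and 3.43 for Cyp2c39.

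Cyp2c37, one of the arachidonic acid epoxygenases, had 2219.8, 3223, 1559, 3944 and 3009 normalized counts in female PP mice and 2899, 3416, 3927, 4947 and 3952 in female LL mice. The male values reached 1205 at the highest. The log2 fold change was 1.55 ± 0.34 (adjusted P = 2.4e-04 by DESeq2) in PP and 2.21 ± 0.34 (adjusted P = 1.4e-08 by DESeq2) in LL mice. Its near copies Cyp2c50 and Cyp2c54 were not called, with log2 fold changes of 0.15 ± 0.26 and 0.53 ± 0.33 in PP mice and 0.44 ± 0.26 and 0.83 ± 0.33 in LL mice (adjusted P from 0.102 to 0.848 by DESeq2).

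On normalized counts Cyp2c67 pointed the other way from its near copies Cyp2c40 and Cyp2c69. It had 3219, 2111, 1419 and 1574 normalized counts in male PP and 2068, 1123, 1202, 1134 and 1056 in female PP mice, ranges that overlapped through 1 mouse, female PP mouse 1. The log2 fold change was -0.66 ± 0.24 (adjusted P = 0.0786 by DESeq2), and without that mouse it was -0.88 (adjusted P = 0.0032 by DESeq2). In LL mice it had 1777, 2243, 1504 and 2020.2 in males and 1280.1, 1316, 1156, 908 and 771 in females, with no overlap and a log2 fold change of -0.80 ± 0.24 (adjusted P = 0.0218 by DESeq2). That call was lost by edgeR (adjusted P = 0.0655), with a transcript length offset (0.0657) and without male LL mouse 2 (0.105), male LL mouse 4 (0.0637), female LL mouse 4 (0.0698) or female LL mouse 5 (0.0849). It was also lost by limma on log2(TPM + 1) and log2(TPM + 0.1), at -0.49 and -0.49 (adjusted P = 0.291 and 0.290). By limma on TPM the log2 fold change in PP mice turned to 0.22, so the direction there depended on the scale.

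Cyp2c29 and Cyp2c70 were not called for sex. Cyp2c29 ranged from 1619 to 3646 normalized counts in males and from 1584 to 4554 in females, with log2 fold changes of 0.26 ± 0.26 in PP and -0.18 ± 0.26 in LL mice (adjusted P = 0.704 and 0.769 by DESeq2). Cyp2c70 ranged from 1128 to 3022 in males and from 1026 to 2929 in females, with log2 fold changes of 0.063 ± 0.29 and 0.090 ± 0.29 (adjusted P = 0.954 and 0.913 by DESeq2).

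**Figure D3:**
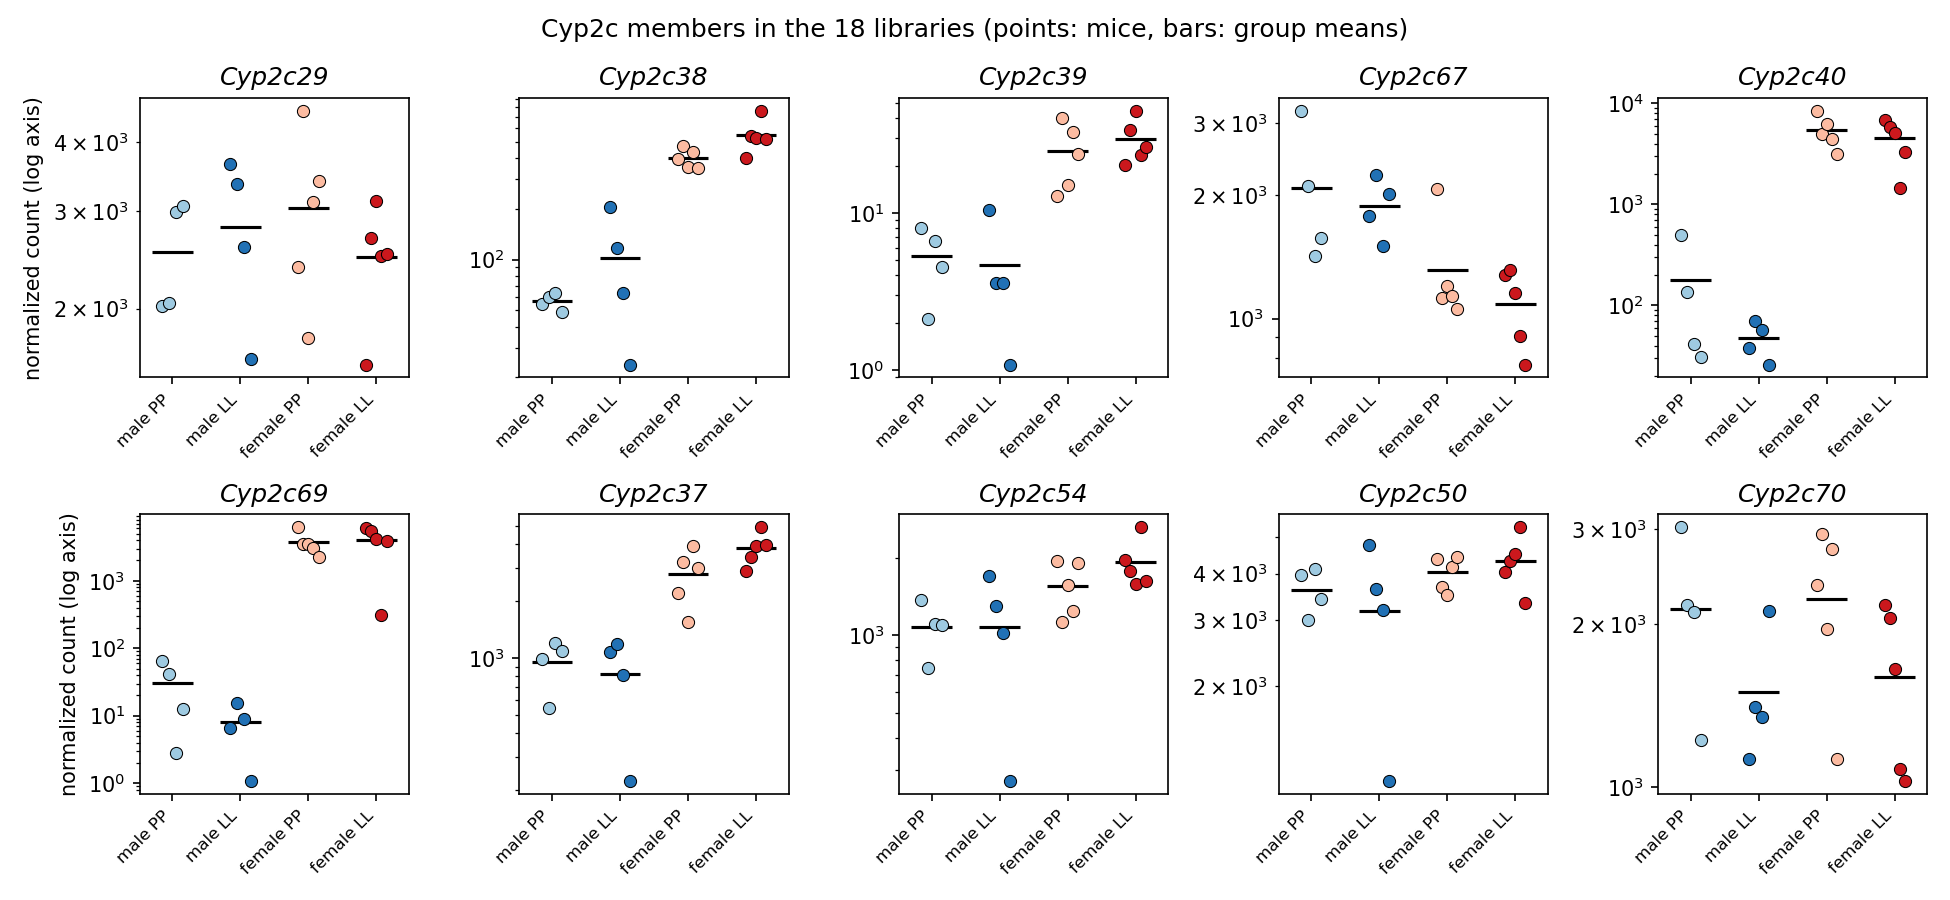
Normalized counts of the 10 members on a log axis, each panel with its own range, 1 point per mouse and a bar at the group mean. The female points of Cyp2c40, Cyp2c69, Cyp2c38, Cyp2c39 and Cyp2c37 lie above the male points of the same genotype, those of Cyp2c67 mostly below, and male LL mouse 4 is the low point for Cyp2c50, Cyp2c54 and Cyp2c37.

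Because reads are shared among near copies, counts were also summed over each set before testing. The sum of Cyp2c40, Cyp2c67, Cyp2c68 and Cyp2c69 was 3522 ± 1543 normalized counts in male PP (SD, n = 4) and 14174 ± 4566 in female PP mice (SD, n = 5), a log2 fold change of 2.01 ± 0.31 (SE, adjusted P = 6.2e-09 by DESeq2). In LL mice it was 2.03 ± 0.31 (adjusted P = 6.7e-09 by DESeq2). The sum of Cyp2c37, Cyp2c50 and Cyp2c54 was called in LL mice, at 0.98 ± 0.27 (adjusted P = 0.0098 by DESeq2), and not in PP mice, at 0.57 ± 0.27 (adjusted P = 0.249 by DESeq2). The sum of Cyp2c29, Cyp2c38 and Cyp2c39 was not called in either. None of the sums was called for genotype (adjusted P from 0.670 to 0.939 by DESeq2).

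The female excess of the whole group depended on the scale. The summed TPM of the 10 genes was 859 ± 54.3 in male PP (SD, n = 4) and 3008 ± 483 in female PP mice (SD, n = 5), a 3.47-fold difference (exact permutation test, two-sided, P = 0.00794, the smallest P this design allows). On summed normalized counts it was 1.93-fold with the same P. The hepatocyte marker Alb (albumin) differed by as much between these groups, 1.91-fold on normalized counts. The TPM of all tested genes had a median log2 difference of 0.73 between these groups, and 0.30 between the LL groups. TPM add up to a fixed total in each library, and major urinary protein genes took 32.5% to 44.9% of the TPM in male PP and 5.66% to 17.4% in female PP mice. On log2(TPM + 1) with limma, 9 of 10 members were called higher in female PP mice, all but Cyp2c67, whereas 5 were called on normalized counts. The share of all genes called by limma is not given here. With all genes shifted on this scale, the 9 cannot be read as a result about the members. Between the LL groups the summed TPM differed 2.72-fold (exact permutation test, two-sided, P = 0.00794). By genotype the summed TPM differed by 0.18 on the log2 scale in males (exact permutation test, two-sided, P = 0.571) and by -0.18 in females (exact permutation test, two-sided, P = 0.246), and in males the sign turned on summed normalized counts.

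Mice varied together within the sets of near copies and, between sets, only for some of them. After subtraction of the group means, log2 normalized counts of Cyp2c50 and Cyp2c54 had a Pearson r of 0.93 over the 18 libraries, Cyp2c40 and Cyp2c69 of 0.84, and Cyp2c40 and Cyp2c67 of 0.77, although Cyp2c40 and Cyp2c67 had an r of -0.51 before it. These pairs share much of their sequence and the libraries, so the values are not independent. Pairs joining the set of Cyp2c29, Cyp2c38 and Cyp2c39 with that of Cyp2c37, Cyp2c50 and Cyp2c54 reached values as high. They were 0.88 for Cyp2c38 and Cyp2c50, 0.79 for Cyp2c29 and Cyp2c37, and 0.78 for Cyp2c38 and Cyp2c54. Pairs of Cyp2c40, Cyp2c67, Cyp2c68 or Cyp2c69 with a gene of those sets did not. They ran from -0.38 for Cyp2c29 and Cyp2c67 to 0.22 for Cyp2c54 and Cyp2c68. Cyp2c70, which shares no coding word with another gene, had an r of 0.65 with Cyp2c68, 0.59 with Cyp2c67 and 0.58 with Cyp2c40, and its lowest was -0.43 with Cyp2c54. Male LL mouse 4 was the lowest of its group for Cyp2c29, Cyp2c37, Cyp2c38, Cyp2c50 and Cyp2c54. For Cyp2c50 it had 1118 normalized counts, against 3194.5 to 4777 in the other male LL mice. How far the high r values among these genes, 0.93 included, rest on that mouse was not tested.

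Labelled age was a further difference between the mice, and its coefficient was examined after the values had been seen. With age in weeks added to the groups, DESeq2 called 2 of 10 members, against 0.192% of all genes. Cyp2c40 changed by -0.47 ± 0.098 on the log2 scale per week (SE, adjusted P = 0.0044 by DESeq2) and Cyp2c67 by -0.17 ± 0.039 (adjusted P = 0.0112 by DESeq2). Their near copy Cyp2c68 had the smallest P of all genes, at -0.18 ± 0.029 per week (adjusted P = 1.0e-05 by DESeq2), and the sum of Cyp2c40, Cyp2c67, Cyp2c68 and Cyp2c69 changed by -0.23 ± 0.050 (adjusted P = 0.0137 by DESeq2). Cyp2c70 had -0.19 ± 0.054 per week (adjusted P = 0.151 by DESeq2). The calls leaned on male PP mouse 1, the 9-week-old male: without it the adjusted P was 0.110 for Cyp2c40 and 0.352 for Cyp2c67, and 0.0166 for Cyp2c68. Within sexes, 1 member, Cyp2c40, was called in males, against 0.137% of all genes (adjusted P = 9.3e-15 by DESeq2) and 0 members in females, against 0.174% of all genes, with an adjusted P of 0.400 for Cyp2c40. The difference between the sexes was not tested. By edgeR neither member was called (adjusted P = 0.114 and 0.280), where only 0.00914% of all genes were called. Age, replicate number and, in both sexes, genotype partly ran together, so these cannot be told apart fully.

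**Figure D4:**
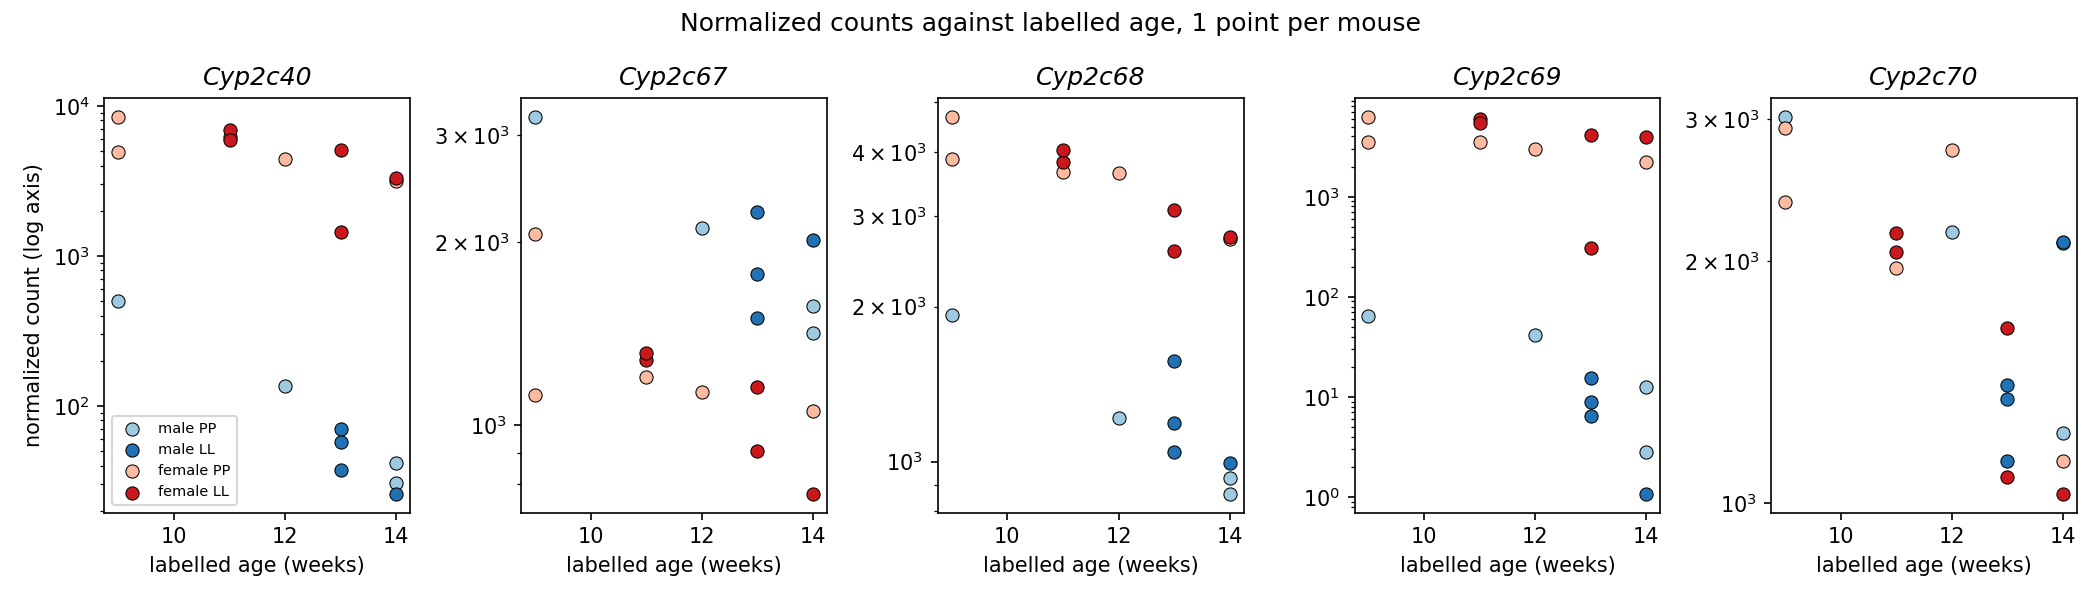
Normalized counts (log axis) of Cyp2c40, Cyp2c67, Cyp2c68, Cyp2c69 and Cyp2c70 against labelled age in weeks, 1 point per mouse, coloured by group. The highest male points of Cyp2c40, 499 at 9 weeks and 135 at 12 weeks, lie above all male points at 13 and 14 weeks.

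The other Cyp2c genes gave a comparison within the family. Cyp2c68 was higher in females in both genotypes, by 1.59 ± 0.22 (SE, adjusted P = 1.3e-10 by DESeq2) and 1.44 ± 0.22 (adjusted P = 1.9e-08 by DESeq2) on the log2 scale. Cyp2c23, an arachidonic acid epoxygenase that lies apart on the same chromosome, had 909 to 1984 normalized counts and no call, with log2 fold changes by sex of -0.035 ± 0.20 and 0.027 ± 0.20. Cyp2c55, at 3.19 to 16.1 normalized counts, was not called either, with -0.21 ± 0.43 in PP and -0.63 ± 0.43 in LL mice (adjusted P = 0.885 and 0.426 by DESeq2). Of the 5 nearest tested protein-coding genes on each side of the cluster, 0 of 10 were called in any of the 4 contrasts. That is near the shares of all genes called, 0.283% to 6.45%.

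Among the partners of these enzymes, 0 of 8 electron donors and associated proteins were called by sex in either genotype, which is near the 6.45% and 6.12% of all genes called. Pgrmc1, a heme-binding protein that associates with cytochromes P450, came closest in PP mice, with a log2 fold change by sex of -0.36 ± 0.11 (adjusted P = 0.0271 by DESeq2) that was smaller than the ratio a call required. It was called higher in female LL than female PP mice (log2 fold change 0.43 ± 0.11, adjusted P = 0.0164 by DESeq2). That call was lost without female PP mouse 1, 2, 3 or 5 or female LL mouse 1 or 4 (adjusted P from 0.0781 to 0.116). Of 12 genes of the epoxide and arachidonic acid pathway, 8 were tested. Ephx2, the soluble epoxide hydrolase that breaks down epoxides of arachidonic acid, was lower in female PP than male PP mice, with a log2 fold change of -0.59 ± 0.13 (adjusted P = 4.1e-04 by DESeq2), and -0.49 without male PP mouse 3, a ratio too small for a call. In LL mice it had -0.35 ± 0.13 (adjusted P = 0.0958 by DESeq2). Cyp2u1 was lower in females in both genotypes, at -2.19 ± 0.41 and -1.83 ± 0.41 (adjusted P = 5.3e-06 and 4.1e-04 by DESeq2). The median log2 fold change of this list by sex was -0.26 in PP mice and -0.10 in LL mice, against -0.0016 and 0.013 for all genes.

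Of 24 regulators of liver cytochromes, 3 were higher and 1 lower in female PP than male PP mice, against 3.68% and 2.77% of all genes. The prolactin receptor Prlr had a log2 fold change of 2.19 ± 0.22 (adjusted P = 1.6e-20 by DESeq2), Cux2, a female-biased repressor of male genes, 5.49 ± 0.81 (adjusted P = 1.2e-09 by DESeq2; 4.90 without female PP mouse 2) and the estrogen receptor Esr1 1.33 ± 0.31 (adjusted P = 5.4e-04 by DESeq2). Bcl6, a male-biased repressor, had -2.09 ± 0.62 (adjusted P = 0.0147 by DESeq2), a call lost without male PP mouse 1 (adjusted P = 0.0925), male PP mouse 4 (0.116) or female PP mouse 5 (0.0514). In LL mice 4 were higher and 0 lower, against 3.33% and 2.79% of all genes. Among the 4 were Nr1i3, which encodes the xenobiotic receptor CAR, at 0.93 ± 0.23 (adjusted P = 0.0029 by DESeq2), and Stat5b, the mediator of growth hormone signalling, at 0.65 ± 0.21 (adjusted P = 0.0317 by DESeq2). The call of Stat5b was lost without male LL mouse 1, 2 or 4 or female LL mouse 4 or 5 (adjusted P from 0.0715 to 0.153). For genotype 0 of 24 were called in either sex, near the 0.283% of all genes called in males and 0.658% in females. Of 20 targets of CAR and its relative PXR outside the cluster, 7 were higher and 2 lower in female PP mice, against 3.68% and 2.77% of all genes. In female LL mice 8 were higher and 0 lower, against 3.33% and 2.79% of all genes. Cyp2a4, a steroid hydroxylase whose near copy Cyp2a5 makes its counts uncertain, averaged 3457 normalized counts in the female PP group against 3.02 in the male PP group, and Cyp2b9 1558.5 against 2.26. Cyp2a4 is no independent support for these counts of higher genes. Every male but male LL mouse 4 had under 10 counts of it, so it passed the filter through the females. Cyp2b9 was near the floor in male PP mice as well. The list of targets was also chosen with earlier results of these data known. Of the 20 targets, Cyp2a4 was the only one called for genotype, higher in male LL than male PP mice by 3.21 ± 0.93 on the log2 scale (adjusted P = 0.0484 by DESeq2). That difference came from 1 mouse: male LL mouse 4 had 96.1 normalized counts, the other male LL mice 1.78 to 6.48 and the male PP mice 0.94 to 5.25. Without male LL mouse 4 it was 0.61 (adjusted P = 0.933 by DESeq2), and the call was also lost without male LL mouse 1 or any of the 4 male PP mice (adjusted P from 0.0698 to 0.271).

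The list counts in this paragraph stand against the shares of all genes. These were 3.68% higher and 2.77% lower in female PP mice, and 3.33% and 2.79% in female LL mice. Of 15 tested retinoid and bile acid partners, 3 were higher and 3 lower in female PP mice, with 1 higher without male PP mouse 2 or female PP mouse 5. The oxysterol hydroxylase Cyp7b1 was lower in females, with log2 fold changes of -4.80 ± 0.42 and -4.19 ± 0.42 (adjusted P = 5.7e-27 and 4.9e-20 by DESeq2). Of 16 pericentral genes, 0 were higher and 1 lower in female PP mice, near the shares of all genes, and 3 were higher and 0 lower in female LL mice. Of 16 periportal genes, 3 were higher and 0 lower in PP and 2 higher and 1 lower in LL mice, the lower one, Cyp2f2, only with male LL mouse 2 included. Markers of other liver cells moved in the PP sex comparison as well: 3 of 6 endothelial and 4 of 5 tested stellate markers were higher in female PP mice, and 0 in female LL mice. Without male PP mouse 2 the stellate count was 2. Of the other lists, 1 of 6 macrophage markers, Vsig4, was higher in female LL mice (not called without male LL mouse 1 or 2 or female LL mouse 1), and 1 of 3 red cell markers, Alas2, was lower in females in both genotypes. The hemoglobin genes Hbb-bs and Hba-a1 were not called by sex. Their log2 fold changes were -0.83 and -1.43 in PP mice and 0.71 and 0.54 in LL mice. Of 5 hepatocyte markers, Alb was higher and Serpina1c lower in female PP mice, and Serpina1c was lower in female LL mice. The summed endothelial markers ranged from 144 to 275 normalized counts in male PP and from 282 to 592 in female PP mice, the summed stellate markers from 289 to 587 and from 681 to 935. Their part in the sex differences was not tested, and fewer cells of a type cannot be told apart from less RNA per cell. Alb was abundant in every group and moved with sex, from 311510 to 410790 normalized counts in male PP and from 619000 to 724060 in female PP mice, with no overlap (log2 fold change 0.94 ± 0.10, adjusted P = 2.2e-17 by DESeq2). In LL mice it was 0.33 ± 0.10 (adjusted P = 0.0247 by DESeq2), under the ratio for a call. Its part in the sex differences of the members was not tested either. The cholangiocyte marker Epcam stayed between 0 and 4.55 normalized counts.

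The genes whose pattern was most like that of a member, by Pearson r of log2 normalized counts over the 18 libraries, were the following, as a description only. For Cyp2c40 it was Xist (r = 0.96), the RNA that silences 1 X chromosome in females, and for Cyp2c69 the sulfotransferase Sult3a1 (r = 0.96). After subtraction of the group means these fell to 0.50 and 0.60. For Cyp2c38 it was Slc22a26 (r = 0.95), for Cyp2c37 Ugt1a1 (r = 0.93), for Cyp2c50 Rpl36a-ps2 (r = 0.90), for Cyp2c54 Gm4952 (r = 0.90), for Cyp2c67 Gtf2b (r = 0.89), for Cyp2c70 Ugt2b37 (r = 0.80) and for Cyp2c29 Hnrnpc (r = 0.72). Cyp2c39 was too low for this comparison, which needed a mean of 50 normalized counts.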

How the data were processed

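RNA was from liver of 18 mice, 1 library each. Salmon 1.4.0 (submitters' processing notes) assigned untrimmed reads to GENCODE mouse transcripts of the GRCm39 build. The estimated counts deposited by the authors are not scaled between libraries and need not be whole, and the TPM values deposited by the authors are scaled to a fixed total per library. Other deposited columns gave transcript lengths. Here transcripts were joined to genes by the GENCODE M39 annotation (137570 of 139225 transcripts, 99.76% of the counts in the lowest library), and estimated counts were summed per gene and rounded. Totals per library were 3794671 to 6613905, so counts near 10 carry a wide counting error. The 10938 genes that reached 10 counts in 4 or more libraries were fitted with DESeq2 1.42.0 in R 4.3.3 in 1 model of the 4 groups with all 18 libraries. Normalized counts are counts over DESeq2 size factors. edgeR 4.0.16 and limma 3.58.1 were alternatives. The scripts were tested on simulated data. Adjusted P values are Benjamini-Hochberg values over the tested genes that DESeq2's independent filtering kept in a contrast (10930 for sex), and one that DESeq2 left empty stayed empty, as for Cyp2c39 by genotype. SE belongs to log2 fold changes and SD to values over mice. Summed levels were compared by two-sided exact permutation tests. P values treat single mice as the replicates. The named genes were the members, other tested Cyp2c genes, flanking genes, at most 4 genes per list and contrast by smallest P, and the most alike gene of each member. Members and lists were chosen with earlier results of these data known. Promoter windows were from RefSeq (GRCm38.p6), and for 1 gene with more than 1 window the one nearest its annotated start was used.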

Additional observations from a re-analysis of the deposited data

Results flagged for a closer look

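Of 56 group values examined, 2 had 1 mouse far from the others of its group, where chance alone gives about 1 in 20. Cyp2c67 had 2068 normalized counts in female PP mouse 1 and 1056 to 1202 in the other female PP mice, and this mouse was 1 of the 2 female PP mice aged 9 weeks. The sum of Cyp2c37, Cyp2c50 and Cyp2c54 was 12910 normalized counts in female LL mouse 4 and 8898 to 10033 in the other female LL mice. The same mouse had the lowest Cyp2c40 and Cyp2c69 of its group.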

How the results depend on the processing

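Depth limits Cyp2c39 and, in males, Cyp2c69 and Cyp2c40 most. Of 1480 recomputed member values, 1390 kept direction and call, 8 lost a call, 13 gained one and 69 changed sign, all of them for values not called either way. The causes were not tested. For the gene lists and markers, leaving out 1 mouse at a time was chosen after the values had been seen.

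Counts of members called by sex in PP mice went from 5 to 3 with at least 10 counts in all libraries, where Cyp2c39 and Cyp2c69 were no longer tested. They went to 9 by limma on log2(TPM + 1) or log2(TPM + 0.1), scales on which all genes shifted. The shares of all genes called in these settings are not given here. Leaving out 1 mouse at a time gave 0 to 1 member called by genotype in males (Cyp2c38 without male LL mouse 4), 5 to 6 by sex in PP and 5 to 7 in LL mice. The shares of all genes called in those fits are not given here either. Sums called by sex were 1 to 2 in PP mice when 1 mouse was left out, and in LL mice fell from 2 to 1 by edgeR, with fragment length as a term and with a length offset. Members with an age coefficient called, 2, numbered 1 without 9-week-old mice (0.119% of all genes called), 1 in males (0.137%) and 0 in females (0.174%). They numbered 0 by edgeR, where only 0.00914% of all genes were called, so that 0 says little about the members. With 1 mouse left out they numbered 0 to 3, against 0.0366% to 0.265% of all genes (0 without male PP mouse 1, against 0.0914%). The summed TPM by genotype in males turned from 0.18 to -0.18 as normalized counts and -0.052 as a share of counts, and ran from -0.0080 to 0.43 with 1 mouse left out.

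Replicate numbers are shared by the groups, but same-numbered mice did not deviate together (r from -0.20 to 0.16 in 25 pairs, over 0.1 in 6). A replicate block left 0 members called by genotype in males, 0 in females, 5 by sex in PP and 6 in LL mice, and turned Cyp2c69 by genotype in females to -0.23. Shares of all genes called with the block are not given here.

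Sign changes by genotype in males were to 0.11 for Cyp2c67 and 0.025 for Cyp2c54 with age, to -0.100 for Cyp2c29 with fragment length, and to 0.10 for Cyp2c54 with a length offset. By limma on log2(TPM + 1) and log2(TPM + 0.1) they were to 0.33 and 0.34 for Cyp2c67, 0.18 and 0.17 for Cyp2c54, 0.038 and 0.029 for Cyp2c37, 0.049 and 0.048 for Cyp2c50, and 0.082 and 0.078 for Cyp2c39. With 1 mouse left out the ranges were -0.0059 to 0.34 for Cyp2c29, -0.44 to 0.10 for Cyp2c37, -0.89 to 0.13 for Cyp2c39, -0.45 to 0.095 for Cyp2c50, -0.32 to 0.31 for Cyp2c54 and -0.29 to 0.15 for Cyp2c67. In females, Cyp2c40 turned to 0.30 with age, and with fragment length Cyp2c50 to -0.19, Cyp2c54 to -0.052, Cyp2c69 to -0.61, Cyp2c39 to -0.027 and Cyp2c37 to -0.050. By the 2 limma fits Cyp2c50 was -0.034 and -0.034 and Cyp2c69 -0.45 and -0.46, and with 1 mouse left out Cyp2c69 ran from -0.10 to 0.40.

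By sex, Cyp2c70 turned to -0.17 in PP and -0.14 in LL mice with age and to -0.12 in PP mice with a length offset, with ranges of -0.13 to 0.28 and -0.045 to 0.30 when 1 mouse was left out. By the 2 limma fits Cyp2c67 was 0.22 and 0.22 in PP mice and Cyp2c29 0.17 and 0.18 in LL mice. For the interaction, the 2 limma fits gave -0.083 and -0.081 for Cyp2c50 and -0.38 and -0.38 for Cyp2c70, and with 1 mouse left out the ranges were -0.72 to 0.20 for Cyp2c38, -0.0013 to 0.54 for Cyp2c50, -0.015 to 0.62 for Cyp2c54, -0.43 to 0.085 for Cyp2c67 and -0.19 to 0.24 for Cyp2c70.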
